A study of Mus musculus with 4 samples.

Results

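TFIIB, a general transcription factor that joins the promoter-bound TATA-binding protein to RNA polymerase II, was mapped by chromatin immunoprecipitation and sequencing (ChIP-seq) in whole hearts of C57BL/6 mice, and the 42 genes described here encode nuclear subunits of the oxidative phosphorylation complexes and cytochrome c. They were chosen by gene symbol, with earlier results of these data known. They are 42 of the 14469 genes to which the deposited tables assign TFIIB regions, and 72 of the 20364 regions name at least 1 of them. The ChIP groups were hearts subjected to transaortic coarctation (TAC, a narrowing of the aorta that loads the left ventricle) for 4 days, begun in males of 12 weeks, hearts of 1 to 2 day old neonates in normal postnatal growth, and normal adult hearts of 12 weeks, with an antibody to Gtf2b (TFIIB) in each. Each group has 1 library, and 1 library of input DNA has no antibody; the labels do not say whether a library pools hearts, and give the sex of the TAC mice alone. The 3 ChIP libraries appear in the tables under codes that match no sample label, so the values below span all 3 ChIP libraries, with no replicate error and no comparison of TAC or neonatal hearts with adult hearts. Depth per library is unknown from these tables.

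Oxidative phosphorylation makes most of the ATP of the beating heart. Complex I oxidises NADH and complex II oxidises succinate, complex III passes the electrons to the small carrier cytochrome c, complex IV hands them to oxygen, and complex V, the ATP synthase, uses the proton gradient so built to make ATP. All subunits of complex II and most of the others are encoded in the nucleus and transcribed by RNA polymerase II. A few core subunits are encoded in mitochondrial DNA, which is read by another polymerase, and are not analysed here. Transcription factors long tied to the nuclear set include NRF1, the ETS factor GABP, YY1 and the estrogen-related receptors.

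All 42 genes had a TFIIB region at the annotated start, here a region centred within 1000 bp of it, and in all 42 the start itself lay inside that region. Such regions were present at 76.5% of all genes in the table and at 47.5% of 21900 protein-coding genes of RefSeq. The members are rows of the gene table, which lists only genes with an assigned region, so the share of RefSeq genes, many of them not in the table, is no like-for-like background for them. Members were also chosen with earlier results of these data known, so 42 of 42 is no unbiased share for such subunits. Of 44 other subunits of the same complexes, 39 had a start-site region. The centres farthest from a start were those of Atp5g1, 749 bp upstream, Ndufs8, 593 bp upstream, and Cox5a, 346 bp downstream, so a window of 500 bp left 40 of the 42. The 42 regions were of usual length, a median of 1466 bp beside 1449 bp over all genes with such a region, and ran from 671 bp at Ndufa1 to 3537 bp at Ndufs8. A CpG island, the usual mark of promoters of broadly expressed genes, lay in 35 of the 42 regions (83.3%), close to the 85.4% of all start-site regions. The genes themselves are short (median 6912 bp; all genes 17837 bp). In a whole heart a weaker region can come from less binding per cell or from fewer cells that bind, and these cannot be told apart.

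The tables build each region from called intervals, and an interval belongs to 1 library. A start-site region of exactly 3 intervals was found at 35 of the 42 genes (83.3%), against 51.9% of all genes with a start-site region. Regions of 1 interval, called in 1 library, were found at 2 of the 42 (4.76%), Ndufa1 and Cox7b, against 18.1% of all genes with a start-site region. Of the 7 members without a CpG island there, only Cox7b had 1 interval, against 44.7% of all genes whose start-site region has no island. A count of 3 intervals is what 1 call in each library gives, but 1 library can also give several, so the number does not show in which libraries a region was called. Ndufa5, Ndufc1 and Uqcrb had 2 intervals, and Uqcrc2 and Atp5d had 4. Ndufa1 and Cox7b are the 2 members on chromosome X. Start-site regions of 1 interval made up 36.1% of those on X, where the median peak value of genes was 22. The part of chromosome X in the low interval number of these genes was not tested.

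**Figure D1:**
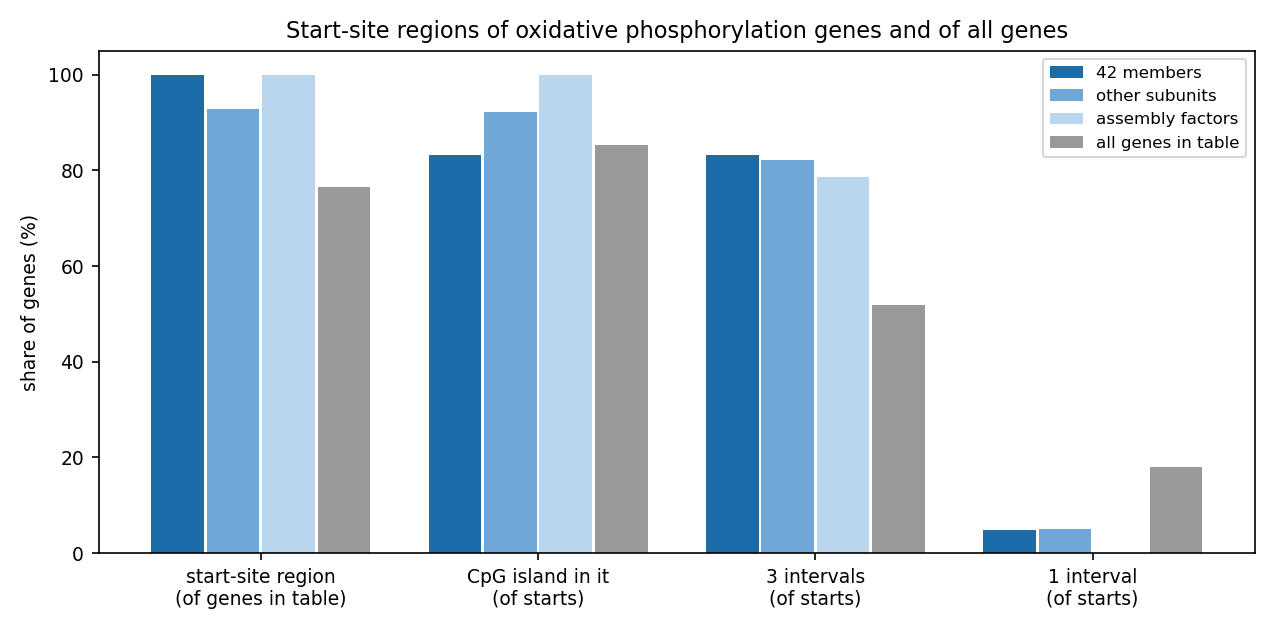
Share of genes (y axis, %) with a start-site region among genes in the table, and, of those, with a CpG island, 3 intervals or 1 interval in it, for the 42 members, other subunits, assembly factors and all genes. Members, chosen with earlier results of these data known, stand at 100% for start-site regions against 76.5% of all genes. They stand at 83.3% for 3 intervals against 51.9%.

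Intervals sat tightly on the starts. Of 121 intervals within 1000 bp of the 42 starts, 90 (74.4%) lay within 100 bp, against 53.3% of 27355 such intervals over all genes. The 27355 were counted over genes with or without a start-site region. The median position was 17 bp downstream of the start for the members and 11 bp upstream for all genes. Among the 35 members with 3 intervals this close, the outermost of the 3 were a median of 64 bp apart, against 80 bp over 5884 genes with 3. At Cycs, the gene of somatic cytochrome c, all 3 intervals were placed 39 bp upstream of the start. The tables place intervals in steps, and 96.1% of differences between them were multiples of 16 bp, so closer spacing is not resolved.

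At 4 members every interval lay more than 200 bp from the start. The intervals of Atp5g1, a gene of the c ring of the ATP synthase, were at -609 to -561 bp, with negative positions upstream, and those of Ndufs1 at -365 to -333 bp. Intervals of Atp5a1 lay 229 to 261 bp downstream and those of Atp5j 715 to 779 bp downstream. Uqcrc2 had 1 interval 881 bp downstream beside 3 at the start, and Atp5d had 1 at -982 bp beside 3 at the start. Starts come from the authors' gene table, which gives 1 start per gene, while RefSeq lists 2 promoters for Atp5j with starts 649 bp apart. Positions were not measured from RefSeq starts.

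**Figure D2:**
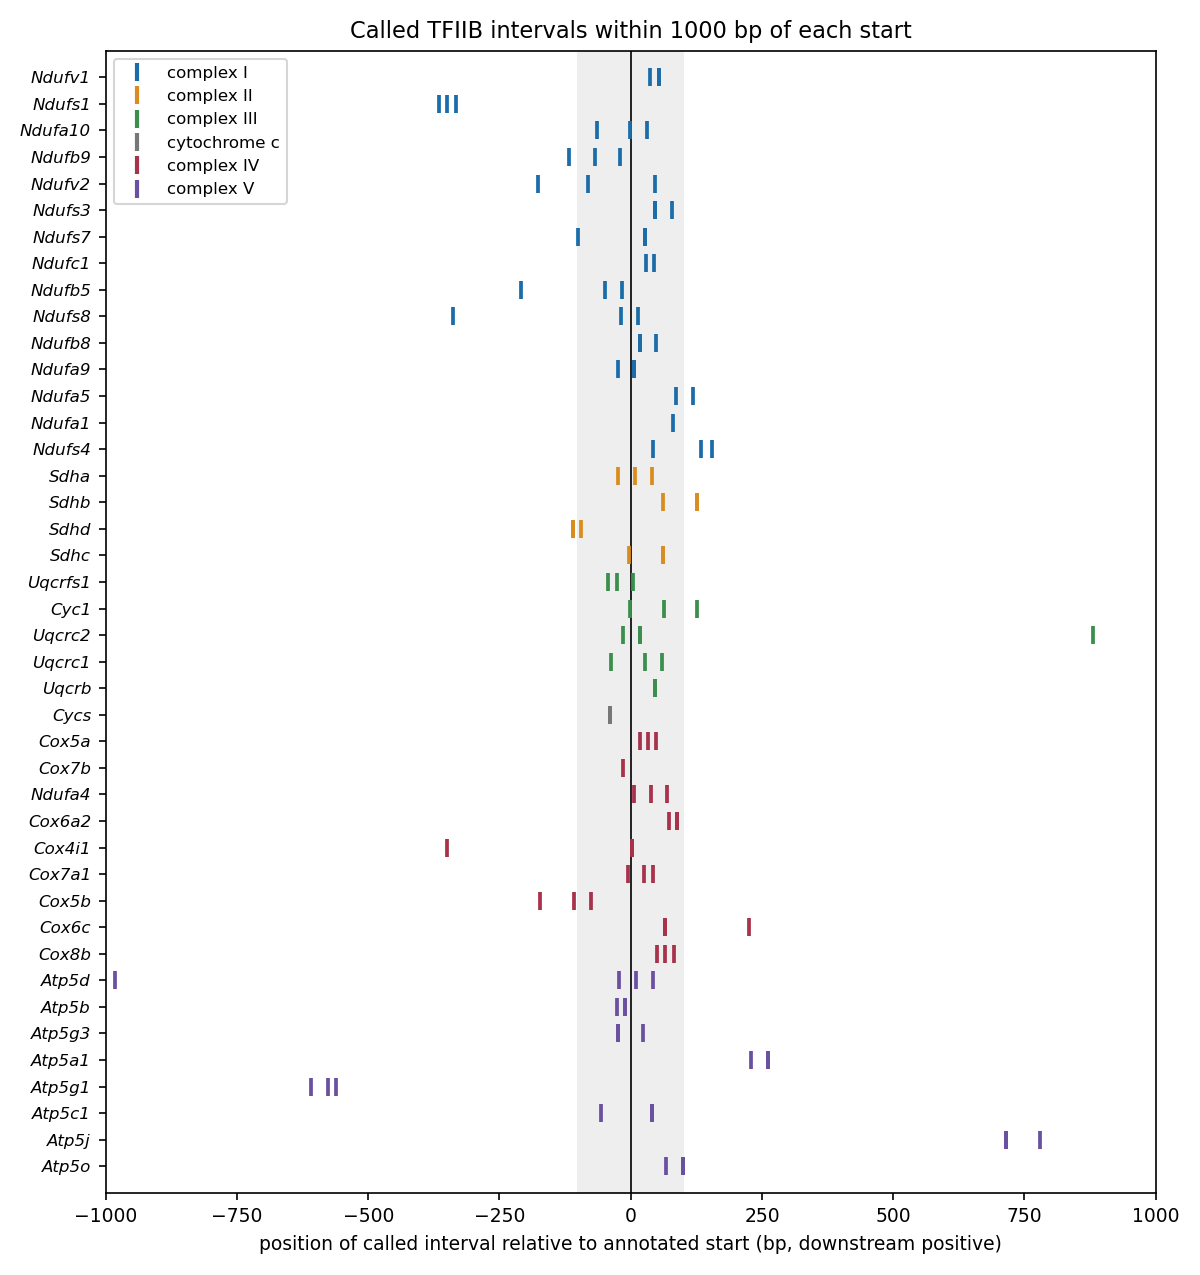
Position of each called TFIIB interval within 1000 bp of the annotated start (x axis, bp, downstream positive) for the 42 genes, coloured by complex, with the 100 bp on both sides shaded. Of 121 intervals 90 fall in the shaded band, and marks at the same position lie on top of each other.

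The authors' peak value takes, for each gene, the maximum over its regions and the libraries, and its unit is not stated. It had a median of 44 over the 42 genes (quartiles 36 and 58.8, range 21 to 100), against 34 over all genes (quartiles 24 and 47). Over the 11070 genes with a start-site region, as all 42 have, the median was 36. Of the 42 genes, 19 (45.2%) were above the upper quartile of all genes, where 24.3% of all genes lie, and 2 (4.76%) were below the lower quartile. Regions outside a gene are assigned to it too, so the value can belong to a neighbour's promoter. It belongs to the start-site region for the 21 members with 1 region. For 7 more, Cox5a, Atp5b, Atp5c1, Sdha, Cyc1, Ndufs3 and Ndufb8, it was traced to the start, because a region cannot exceed the lowest value of the genes that share it, and that bound left only the start-site region for the value of this gene or of a gene beside it. For Ndufs7 and Cox7b it came from another region, and for 12 it could not be decided whether the start-site region holds it. Among the 12 is Ndufv1, whose value of 85 is held by a region over the start of Nudt8. The start-site region of Ndufv1 has at most 85.

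The medians stood in the same order when values that may come from a region away from the start were left out. Regions that are also assigned to other genes remain in the sets of 21 and 28 members. The 21 members with 1 region had a median of 39 (quartiles 27 and 56), against 32 (quartiles 23 and 43) over the 5488 genes whose 1 region was at the start. Over the 28 members with a value known to be that of the start, the median was 43.5, against 34 over 6875 genes with such a value, and the range was 21 to 100. The quartiles of the members with 1 region overlap those of all genes whose 1 region was at the start. Over the 6 members whose regions are assigned to no other gene the median was 41. It was 29 over 4892 such genes, with or without a start-site region.

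**Figure D3:**
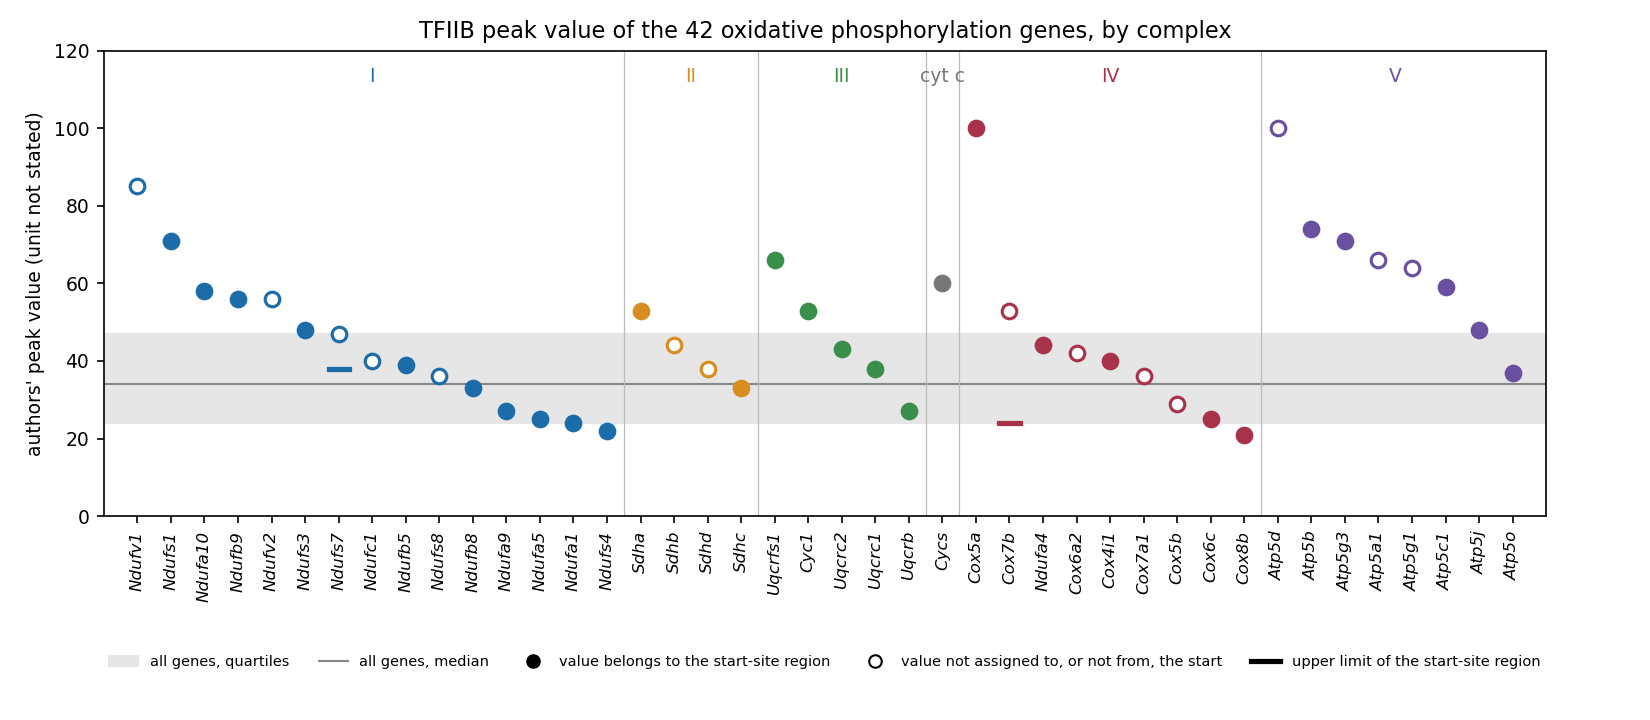
Authors' peak value (y axis, unit not stated) of each of the 42 genes by complex, filled where it belongs to the start-site region and open where it does not or could not be assigned, with bars for the upper limit at the starts of Ndufs7 and Cox7b, and the median (34) and quartiles (24 and 47) of all genes as line and band. Complex V genes run from 37 to 100, and complex I genes from 22 to 85.

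Promoter sequences of 32 of the 42 genes are in the RefSeq table (GRCm38.p6), from 250 bases before to 50 after the start, and were searched for the letters of 10 motifs. The motifs were GCGCA followed by any base and GCGC for NRF1, CCGGAAG for ETS factors such as GABP, AAGATGGCG for YY1, GGGCGG for Sp1, CCAATNA for NF-Y, AAGGTCA for estrogen-related receptors, CTAAAAATA for MEF2 and CAGCTG for the muscle type of E-box, on both strands, TATAAA on the sense strand, and the TFIIB recognition element BREu on both strands (G or C, G or C, G or A, then CGCC). A gene with several promoter sequences counts when any of them holds the motif. In the lines that show sequences below, stretches run from 100 bases before to 50 after the start, 5′ to 3′ in the direction of the gene, with GRCm38.p6 coordinates, and capitals mark matches to any of these motifs except Sp1. A match is a run of letters and not a shown binding site. Only exact letters were counted, so a promoter without a match is not shown to lack a site.

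NRF1 letters were in 7 of the 32 promoters (21.9%), against 12.2% of 8530 genes with a start-site region and 5.19% of all 27025 genes with a promoter sequence. The 7 were Atp5c1, Atp5g3, Atp5o, Ndufa5, Sdha, Sdhd and Uqcrc1. YY1 letters were in 5 (15.6%), against 3.82% and 1.64%. ETS letters were in 5 (15.6%), Atp5j, Ndufs3, Ndufs8, Sdhb and Sdhd, against 21.4% and 9.93%, and Sp1 letters in 12 (37.5%), against 71.5% and 38.2%. BREu letters were in 14 (43.8%), against 62.3% and 32.8%. They were counted on either strand, at any position in the window and with or without TATA letters, so these shares do not count working elements. Shares for NF-Y were 18.8%, against 19.8% and 17.8%, for the receptor motif 6.25%, against 3.46% and 5.38%, for the E-box 9.38%, against 17.1% and 18.3%, and for TATA 6.25%, against 4.96% and 9.77%. MEF2 letters were in none of the 32, and in 0.34% of genes with a start-site region and 0.588% of all genes. Overlaps among the members' matches were 1 of NRF1 with BREu, 1 of YY1 with BREu and 1 of ETS with Sp1. The median GC content was 58% over the members, against 61.7% over genes with a start-site region and 52.7% over all genes.

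**Figure D4:**
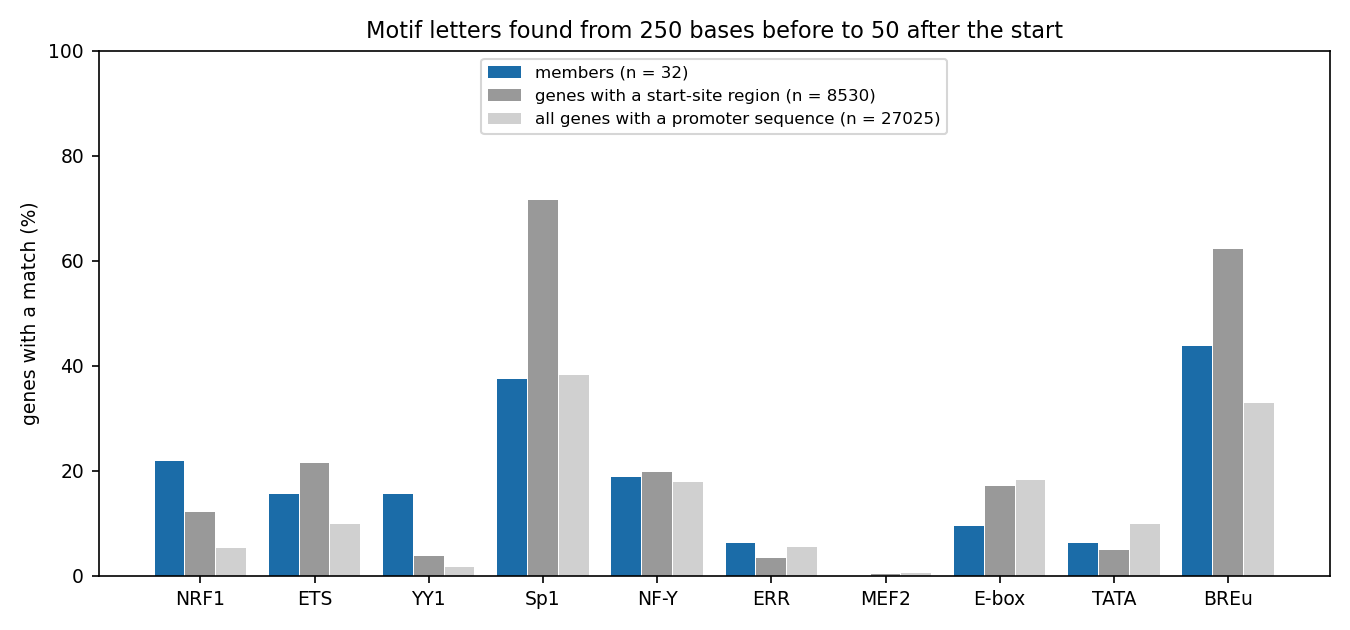
Share of genes (y axis, %) whose promoter sequence holds the letters of each motif, for the 32 members, 8530 genes with a start-site region and 27025 genes in all. NRF1 stands at 21.9% and YY1 at 15.6% of members, above both other sets, while Sp1 (37.5%) and BREu (43.8%) stand below the genes with a start-site region (71.5% and 62.3%).

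Complex I was represented by 15 genes with a median peak value of 40. Its nuclear core subunits carry the flavin and iron-sulfur clusters and are shared with bacteria, and accessory subunits surround them. The 6 core genes had a median of 52 and a range of 36 to 85, and the 9 accessory genes a median of 33 and a range of 22 to 58, a split made after the values were known. Of the 6 core values 2 are known to be those of the start, with a median of 59.5. Of the 9 accessory values 8 are, with a median of 30. All these regions, core and accessory, are also assigned to other genes, except that of Ndufs4, so the values can include signal of neighbours. Among core genes, Ndufs1, the largest iron-sulfur subunit, had 71 from its 1 region. That region is also assigned to Eef1b2 and Gpr1, and its intervals lay at -365 to -333 bp from the Ndufs1 start. Ndufs3 had 48 traced to a start it shares with Kbtbd4. Ndufv2, an iron-sulfur subunit of the NADH module, had 56, which could not be assigned to 1 of its 3 regions. Ndufv1, which binds NADH and flavin, had 85, a value held by a region over the start of Nudt8, centred 12380 bp downstream of the Ndufv1 start, so the value at its own start is at most 85. Ndufs7, which carries the last iron-sulfur cluster before ubiquinone, had 47, but its start-site region has at most 38, and the value belongs to a region over the start of Gamt or of Dazap1. Ndufs8, another iron-sulfur subunit, had 36, which could not be assigned to 1 of its 2 regions. Its start-site region has 3537 bp and no CpG island.

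Accessory genes of complex I are ordered here by value. Ndufa10 had 58 from 1 region, at the 86.1st percentile of all genes. Ndufb9 had 56 and Ndufb5 had 39, both from 1 region at a start shared with a gene on the opposite strand, Tatdn1 and Mrpl47. Mrpl47 encodes a protein of the mitochondrial ribosome. Ndufc1 had 40, which could not be told from the value of the region over the start of Narg1. Ndufb8 had 33 and Ndufa9 27. Ndufa5 had 25, from 2 intervals, and Ndufa1, on X and of 1 interval, had 24. Ndufs4, a subunit whose loss in mice causes a Leigh-like brain disease, had 22, the lowest of complex I, with 3 intervals 43 to 155 bp downstream of the start.

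YY1 letters were in 4 of 13 complex I promoters and in 1 of the 19 others. In those 4 the match lay on the sense strand just after the start, its first base at position 23 in Ndufc1, 25 in Ndufs7, 30 in Ndufa9 and 36 in Ndufs4. A match on the sense strand downstream of the start was thus present in 4 of the 5 members with YY1 letters (80%), Atp5j being the exception, against 54.9% of 326 genes with a start-site region and YY1 letters. The 4 sequences are shown to compare that position, with Ndufa10, the highest complex I gene of 1 region and a known promoter sequence, after them.
Ndufc1, chr3:51408906-51409055, minus strand: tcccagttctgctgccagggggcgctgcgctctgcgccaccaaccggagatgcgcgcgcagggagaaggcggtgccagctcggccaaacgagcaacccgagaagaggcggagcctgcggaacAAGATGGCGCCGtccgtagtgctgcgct
Ndufs7, chr10:80249349-80249498, plus strand: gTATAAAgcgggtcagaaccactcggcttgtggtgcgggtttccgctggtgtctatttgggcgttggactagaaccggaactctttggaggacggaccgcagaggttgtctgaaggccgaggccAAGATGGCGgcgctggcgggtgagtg
Ndufa9, chr6:126849095-126849244, minus strand: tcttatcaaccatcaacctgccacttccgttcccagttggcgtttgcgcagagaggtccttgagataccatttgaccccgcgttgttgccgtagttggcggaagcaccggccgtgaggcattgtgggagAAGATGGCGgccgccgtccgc
Ndufs4, chr13:114388045-114388194, minus strand: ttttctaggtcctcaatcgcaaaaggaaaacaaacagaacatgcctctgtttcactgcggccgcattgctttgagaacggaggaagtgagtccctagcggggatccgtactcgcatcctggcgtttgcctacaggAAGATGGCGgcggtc
Ndufa10, chr1:92473709-92473858, minus strand: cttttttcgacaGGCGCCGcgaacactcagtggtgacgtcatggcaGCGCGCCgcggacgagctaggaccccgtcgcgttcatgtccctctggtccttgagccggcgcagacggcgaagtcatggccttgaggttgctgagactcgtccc
The last capitals of Ndufc1, Ndufs7, Ndufa9 and Ndufs4 hold AAGATGGCG; in Ndufc1 it runs into a BREu match. The first capitals of Ndufs7 are the TATA letters, 99 bases before the start. The capitals of Ndufa10 are BREu matches. The peak values of the YY1 group were 40 for Ndufc1, 47 for Ndufs7, 27 for Ndufa9 and 22 for Ndufs4. Only those of Ndufa9 and Ndufs4 are known to be values of the start, which is at most 38 for Ndufs7 and at most 40 for Ndufc1.

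Ndufs8 and Ndufa9 were the 2 complex I genes with no CpG island in the start-site region, and Ndufa1 was the one with 1 interval. Their promoters are shown for that reason, apart from Ndufa9, given above.
Ndufs8, chr19:3912725-3912874, minus strand: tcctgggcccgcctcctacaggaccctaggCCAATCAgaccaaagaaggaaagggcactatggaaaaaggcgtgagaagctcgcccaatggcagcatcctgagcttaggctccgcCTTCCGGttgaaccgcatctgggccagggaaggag
Ndufa1, chrX:37191189-37191338, minus strand: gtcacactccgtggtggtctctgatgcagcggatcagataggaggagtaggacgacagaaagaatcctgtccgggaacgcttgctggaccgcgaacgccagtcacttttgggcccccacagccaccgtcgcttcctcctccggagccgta
Capitals mark NF-Y letters and then ETS letters in Ndufs8, and no motif was matched in this stretch of Ndufa1. The start-site region of Ndufa1 does hold an island. The promoter of Ndufs8 held 12 CpG dinucleotides in 300 bases and that of Ndufa1 held 29, against a median of 20.5 over the 32 members.

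Complex II had 4 genes with a median of 41 and all 4 start-site regions held a CpG island and 3 intervals. Over all genes with a start-site region 85.4% held an island and 51.9% had 3 intervals. Sdha, the flavoprotein that oxidises succinate, had 53, traced to a start shared with Ccdc127 on the opposite strand. Sdhb, the iron-sulfur subunit, had 44 and 4 regions. The membrane anchors Sdhd and Sdhc had 38 and 33. Sdhd shares its region with the start of Timm8b, a gene of mitochondrial protein import. Sdha held 3 NRF1 matches in 1 promoter, and Sdhd held NRF1, ETS and receptor letters.

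Complex III had 5 genes with a median of 43. Uqcrfs1, the Rieske iron-sulfur protein, had 66 from 1 region. Cyc1, cytochrome c1, had 53 traced to its start. The core proteins Uqcrc2 and Uqcrc1 had 43 and 38, and the small subunit Uqcrb had 27, with 2 intervals and no CpG island. Cycs, the carrier between complexes III and IV, had 60. Sdha and Uqcrc1 are shown as the members with 2 or more NRF1 matches, and Uqcrfs1 and Cycs as the highest of their groups.
Sdha, chr13:74350191-74350340, minus strand: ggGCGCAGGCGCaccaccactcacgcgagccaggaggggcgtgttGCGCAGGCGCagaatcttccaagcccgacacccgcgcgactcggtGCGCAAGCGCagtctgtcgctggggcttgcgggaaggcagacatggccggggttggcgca
Uqcrc1, chr9:108936548-108936697, plus strand: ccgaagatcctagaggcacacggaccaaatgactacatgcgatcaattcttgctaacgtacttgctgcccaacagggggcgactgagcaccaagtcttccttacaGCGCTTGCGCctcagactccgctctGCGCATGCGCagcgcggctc
Uqcrfs1, chr13:30545267-30545416, minus strand: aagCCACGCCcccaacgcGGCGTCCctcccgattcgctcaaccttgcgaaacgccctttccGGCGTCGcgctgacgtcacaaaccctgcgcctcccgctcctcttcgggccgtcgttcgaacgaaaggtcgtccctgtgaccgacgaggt
Cycs, chr6:50566520-50566669, minus strand: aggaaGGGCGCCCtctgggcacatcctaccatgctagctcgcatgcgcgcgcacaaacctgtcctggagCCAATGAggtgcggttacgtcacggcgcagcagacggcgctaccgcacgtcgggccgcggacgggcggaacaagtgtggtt
All capitals of Sdha and Uqcrc1 are NRF1 letters, at 98, 55 and 10 bases before the start of Sdha and from positions 6 and 31 after that of Uqcrc1. Those of Uqcrfs1 are BREu matches. In Cycs the first capitals are BREu letters and the second NF-Y letters at 31 bases before the start.

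Complex IV, cytochrome c oxidase, had 9 genes with the widest range, 21 to 100 with a median of 40. Cox5a, a nuclear subunit on the matrix side, had 100, traced to its start-site region at the 96.3rd percentile of all genes, and its partner Cox5b had 29. Ndufa4, named for complex I and now placed in complex IV, had 44 from 1 region. Cox4i1, a subunit that takes part in regulation by ATP, had 40, at a start shared with Cox4nb. Cox6c had 25. Cox7b had 53, but that value was traced to the start of Atp7a, centred 11603 bp downstream of the start of Cox7b, and the Cox7b start has at most 24.

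The heart and skeletal muscle forms Cox6a2, Cox7a1 and Cox8b replace the forms of other tissues as the mouse heart matures. None of the 3 had a CpG island in its start-site region, against an island at Cox6a1, Cox7a2 and Cox8a, the forms of other tissues. All 6 start-site regions had 3 intervals. Cox6a2 had 42 and Cox6a1 43. Cox7a1 had 36 and Cox7a2 49. Cox8b had 21, the lowest of the 42, and Cox8a had 50, with at most 47 at its start. The muscle form had the lower gene value in each pair, by 1 unit for Cox6a2, and no error is known for any value. At the starts themselves the order is fixed by the tables only for Cox7a1, with at most 36, and Cox7a2, with 49, since Cox6a2, Cox6a1 and Cox8a have other regions.

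Start-site regions without an island had lower values in the whole table too. The 3 members with 1 region and no island, Ndufa9, Uqcrb and Cox8b, had a median of 27, against a median of 41.5 over 18 members with 1 region and an island. Over all genes with 1 region at the start the medians were 20 over 670 genes without an island and 34 over 4818 with one. Cox6a2, Cox7b, Cox7a1 and Cox8b are the complex IV genes without an island, of which Cox7b, Cox7a1 and Cox8b are shown, and Ndufa4 as the highest of 1 region.
Cox7b, chrX:106015600-106015749, plus strand: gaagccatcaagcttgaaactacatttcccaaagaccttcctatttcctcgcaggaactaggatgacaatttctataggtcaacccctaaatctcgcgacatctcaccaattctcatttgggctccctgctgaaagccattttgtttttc
Cox7a1, chr7:30184071-30184220, plus strand: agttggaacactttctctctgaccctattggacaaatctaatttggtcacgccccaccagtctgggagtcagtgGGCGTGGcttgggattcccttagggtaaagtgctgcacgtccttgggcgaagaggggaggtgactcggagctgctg
Cox8b, chr7:140900397-140900546, minus strand: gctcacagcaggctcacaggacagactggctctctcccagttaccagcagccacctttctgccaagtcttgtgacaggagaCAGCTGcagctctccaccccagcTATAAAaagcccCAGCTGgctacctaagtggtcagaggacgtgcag
Ndufa4, chr6:11907401-11907550, minus strand: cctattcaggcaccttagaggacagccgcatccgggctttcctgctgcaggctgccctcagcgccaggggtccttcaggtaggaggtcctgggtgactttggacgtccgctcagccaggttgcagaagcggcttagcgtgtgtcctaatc
Cox8b has 2 E-boxes, at 19 bases before the start and from position 17 after it, on both sides of TATAAA at position 5. Cox7a1 has BREu letters at 26 bases before the start. Cox7b and Ndufa4 have no capitals. The promoters of Cox8b, Cox7b and Cox7a1 held 2, 5 and 7 CpG dinucleotides in 300 bases, against a median of 22 over genes with a start-site region.

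Complex V, the ATP synthase, had the highest median of the groups with several genes, 65 over 8 genes, and 59 over the 5 with a value known to be that of the start. All 8 start-site regions held a CpG island, as did 85.4% of those of all genes. Atp5b, the catalytic beta subunit, had 74 traced to its start, and Atp5c1, the gamma subunit of the central stalk, had 59, at a start shared with Kin. Atp5a1, the alpha subunit, had 66, and Atp5d, the delta subunit of the central stalk, had 100. Neither value could be assigned to 1 region, and Atp5d also lists a region of 9022 bp with 6 intervals that it shares with Midn. The c ring genes Atp5g3 and Atp5g1 encode the same mature protein and had 71 from 1 region and 64. Their relative Atp5g2 had 65, from a single region of 3995 bp whose centre is at -1056 bp, with 6 intervals, just beyond the window used here. The stalk subunits Atp5j and Atp5o had 48 and 37.

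Atp5j shares its start-site region with Gabpa, which encodes the DNA-binding subunit of GABP. A region of 2821 bp with a CpG island, chr16:84834148-84836969 in mm9, covers both starts, which lie 450 bp apart on opposite strands, so that the genes overlap. The value of 48 and the 3 intervals belong to both genes. Intervals lay 715 to 779 bp downstream of the Atp5j start and at -329 to -265 bp from the Gabpa start. RefSeq lists a pair of Atp5j promoters with starts 649 bp apart, and the one nearer the middle of the gene holds YY1 letters at 88 and ETS letters at 61 bases before the start, the same stretch being read from the other strand in the Gabpa promoter at 68 and 93 bases before its start. It is shown with Atp5g3, the highest complex V gene of 1 region.
Atp5j, chr16:84834927-84835076, minus strand: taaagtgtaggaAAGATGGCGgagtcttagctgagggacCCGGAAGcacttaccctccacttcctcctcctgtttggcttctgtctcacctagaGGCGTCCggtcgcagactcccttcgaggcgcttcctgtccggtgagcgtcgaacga
Atp5g3, chr2:73911277-73911426, minus strand: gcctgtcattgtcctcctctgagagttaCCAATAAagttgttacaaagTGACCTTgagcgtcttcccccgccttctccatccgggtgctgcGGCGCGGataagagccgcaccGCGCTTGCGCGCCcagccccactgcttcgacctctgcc
Capitals of Atp5j are YY1, ETS and BREu letters in that order. Those of Atp5g3 are NF-Y at 72 and receptor letters at 52 bases before the start, BREu, and NRF1 from position 13 running into BREu. Atp5g3 held 4 of the 10 motifs.

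A start shared with a gene on the opposite strand was found at 11 of the 42 members (26.2%), against 19.8% of all genes with a start-site region. Complex II had 3 of its 4 genes in such pairs, complex I 5 of 15, complex V 2 of 8, complex IV 1 of 9, and complex III and Cycs none. Partners with a mitochondrial role by name were Mrpl47 and Timm8b.

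Other subunits and assembly factors of the same complexes are given for comparison, with no test of a difference. Of 44 other subunits 42 were in the table and 39 had a start-site region, and of 29 assembly factors 28 were in the table and all of those 28 had one. Islands lay in 36 of 39 and 28 of 28 of these regions, against 85.4% over all genes with a start-site region. Exactly 3 intervals were found in 32 of 39 and 22 of 28, against 51.9%. Intervals within 100 bp of the start were 66.1% of those within 1000 bp for other subunits and 73.1% for assembly factors. The shares were 74.4% for the members and 53.3% over all genes. The outermost of 3 close intervals were a median of 96 bp apart in each list, against 64 bp for the members and 80 bp over all genes. A start shared with a gene on the opposite strand was found at 10 of 39 other subunits (25.6%) and 13 of 28 assembly factors (46.4%), against 19.8% of all genes with a start-site region. The median peak value was 39.5 in each list, against 34 over all genes. Other subunits with high values were Ndufb10 at 114, which belongs to a region near Rps2 while its own start has at most 66, and Uqcrh at 90, from 1 region shared with the start of Lrrc41. Among assembly factors Cox17, a copper chaperone of complex IV, had 101, from a region 15593 bp away, and at most 43 at its start, and Cox15, which makes heme A, had 80.

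Cyct and Cox4i2, isoforms of other tissues, had no start-site region, and that of Ndufa4l2 had 1 interval. Cyct, the testis cytochrome c, had 24 from a region centred at -9784 bp, and none at the start. Cox4i2, the lung form of subunit 4, had 13 from a region centred 12417 bp downstream of its start, beyond the gene. Ndufa4l2, a hypoxia-induced relative of Ndufa4, had 23, at most, in a start-site region of 1 interval and no island. Cox8c and Cox6b2, testis forms, were not in the table. Cycs, Cox4i1 and Ndufa4, their counterparts among the 42, had 60, 40 and 44 with 3 intervals each.

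The tissue label was set against marker genes. Of 10 cardiomyocyte markers 8 had a start-site region and all 10 had the start inside a region. The shares of all genes were 76.5% and 75.6%. The median peak value of these markers was 91, against 34 over all genes. Of 6 genes of other tissues 3 were in the table, with values of 11 to 41, and 0 had a start-site region. Start-site regions were also found at fibroblast (5 of 6, median value 50.5) and endothelial markers (5 of 5, median 36). The same held for smooth muscle (3 of 4, median 20.5) and macrophage markers (4 of 4, median 20). Regions of the 42 genes can thus come from any of these cells, and the shares of these cells were not tested.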

How the data were processed

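The data are 2 tables, of merged TFIIB regions and of genes, on mouse build mm9 per the submitters' processing notes. Per the labels' protocols a service company made and sequenced the libraries. The names of the aligner and interval caller, the thresholds, the scaling and the use of input DNA were not given in the sources used here. Each gene's peak value is a signal the authors deposited as a whole number, with no stated unit. The 15 columns of per-library values carry codes that match no label and were not used. Members and lists were chosen with earlier results of these data known.

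Regions were joined to genes by the tables' own gene lists, and the start-site region is the nearest one centred within 1000 bp. Tracing a value to a region left 0 genes without a possible region. Of 14469 gene IDs, 13659 matched RefSeq (GRCm38.p6), among them all 42 members, of which 32 had a promoter sequence. No gene was filtered and no test was run, since genes are not replicates and each group has 1 library. Values are given for the extremes of each complex, members without an island or with 1 interval, and isoform pairs; sequences of Sdha, Uqcrc1 and the YY1 group were added after their matches were seen. The steps were tested on simulated data. Python 3.11.15, pandas 2.3.3 and matplotlib 3.10.9 were used.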

Additional observations from a re-analysis of the deposited data

How the results depend on the processing

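Counts of members, other subunits and assembly factors with a start-site region, of islands and of single intervals stayed within 1.5 times the reported count with windows of 500 and 5000 bp and with the start inside a region, where they were run. The median peak value of the members was 39 to 44 under the 4 other choices, which are subsets of the same values. With promoters cut to 100 bases before the start, NF-Y letters were in 12.5% of members, against 13.6% of genes with a start-site region and 11.3% of all genes, and E-boxes in 6.25%, against 9.74% and 10.9%; the shorter window holds fewer bases. The traced values and the promoters of genes with 1 sequence were chosen after seeing the data. No paired analysis was possible because each group has 1 library and the labels give no replicate numbers. TAC and neonatal hearts were not compared with adult hearts, so scaling was not varied. Depth is unknown, and no interval covers the error of a single peak value.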

Other observations

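Of the genes described, 3 lie on chromosome X. Ndufa1 had a peak value of 24, from 1 interval. Cox7b had a gene value of 53, with at most 24 at its start, which has 1 interval. Ndufb11, an accessory subunit of complex I outside the 42, had 16 from a region of 2 intervals with a CpG island. Genes on X had a median peak value of 22 over 363 genes, against 34 over all genes, and the medians of chromosomes 1 to 19 ran from 32 to 37. The labels give the sex of the TAC mice as male and that of the other groups not at all.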
